A study of Mus musculus with 2 samples.

Results

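The Ly6 surface antigen family was examined through 6 genes, Ly6a, Ly6e, Ly6d, Ly6c1, Ly6c2 and Ly6g, in single-cell RNA-sequencing (sc-RNA-seq) of mouse bone marrow. They were taken by gene symbol from the 13211 genes listed over the count tables of the study, and all 6 were listed in both tables. The study deleted Col1a1, which encodes the type I collagen α1 chain, in cells that express Fsp1 (S100a4). Col1a1fspKO mice carried Fsp1-Cre and floxed Col1a1 alleles (Fsp1-Cre;Col1a1flox/flox), and their WT littermates carried the same floxed alleles without Cre (Cre-negative;Col1a1flox/flox). Mice were 2 months old and untreated. Each genotype was 1 library from marrow of 2 pooled mice, so there was no replicate and no test between genotypes. The cells of the mice in a pool could not be separated. S100a4, whose promoter drives the Cre, is expressed in marrow cells as well as in fibroblasts, with 2026 UMIs in the Col1a1fspKO library and 2184 in the WT library.

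Ly6 proteins are small, cysteine-rich proteins held on the outer face of the plasma membrane by a glycosylphosphatidylinositol anchor. Most mouse family members lie in a cluster on chromosome 15. Several serve as antigens by which marrow cells are sorted: Ly6C marks inflammatory monocytes, Ly6G marks neutrophils, Ly6A (Sca-1) marks haematopoietic stem cells and subsets of lymphocytes, and Ly6D marks lymphoid progenitors committed to the B lineage. Ly6E is broadly expressed and is induced by interferon. Ly6c1 and Ly6c2 are neighbouring paralogs that both encode Ly6C.

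In GENCODE M21 (GRCm38), the 6 genes span 397 kb of chromosome 15. From one end of the cluster to the other they are Ly6d (chr15:74762056-74763620, minus strand), Ly6e (chr15:74955051-74959905, plus), Ly6a (chr15:74994877-74998031, minus), Ly6c1 (chr15:75044018-75048830, minus), Ly6c2 (chr15:75108158-75111970, minus) and Ly6g (chr15:75155240-75159126, plus). RefSeq promoters (GRCm38.p6) were at hand for 3 of the 6 members, Ly6c1, Ly6c2 and Ly6g. Each of these genes had 2 entries, and the first was used. The 200 bases before its annotated start are shown side by side for these 3 neighbours. Their levels, given below, do not share a single pattern over cell types. The windows are chr15:75048838-75049037 (minus) for Ly6c1, chr15:75111972-75112171 (minus) for Ly6c2 and chr15:75155061-75155260 (plus) for Ly6g, written 5′ to 3′. The Ly6g window runs past the GENCODE start of that gene. Capitals mark the longest run shared by all 3, which is 12 bases long.
Ly6c1: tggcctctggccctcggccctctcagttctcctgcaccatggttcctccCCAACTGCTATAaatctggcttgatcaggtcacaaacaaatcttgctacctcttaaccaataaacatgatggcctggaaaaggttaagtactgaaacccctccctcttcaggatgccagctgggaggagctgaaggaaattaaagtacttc
Ly6c2: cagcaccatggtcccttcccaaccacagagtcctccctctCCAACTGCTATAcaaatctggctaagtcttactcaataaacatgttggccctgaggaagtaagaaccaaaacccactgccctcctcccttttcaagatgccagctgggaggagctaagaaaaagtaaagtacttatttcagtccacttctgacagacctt
Ly6g: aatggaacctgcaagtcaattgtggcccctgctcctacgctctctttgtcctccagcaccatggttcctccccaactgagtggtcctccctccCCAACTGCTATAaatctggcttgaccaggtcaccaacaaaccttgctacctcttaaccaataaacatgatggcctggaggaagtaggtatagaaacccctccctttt
The shared run started 151 bases before the annotated start of Ly6c1, 160 before that of Ly6c2 and 107 before that of Ly6g. A global alignment gave 56.1% identity between the Ly6c1 and Ly6c2 windows, 50.7% between Ly6c1 and Ly6g, and 45.3% between Ly6c2 and Ly6g. On both strands 5 motifs were searched. The TATA box letters TATAAA were found 143 bases before the annotated start of Ly6c1 and 99 before that of Ly6g. There they overlap the end of the shared run. They were not in the Ly6c2 window, and 9.96% of all 32851 promoter windows of that length hold them. GAGGAA, the core bound by PU.1 and other ETS factors of myeloid cells, was found in all 3, against 19.03% of all windows. The STAT motif TTCNNNGAA (5.49% of all windows), the core of the interferon-stimulated response element (2.27%) and the C/EBP motif TTGCNNAA (7.47%) were in none of the 3.

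Bone marrow was flushed from femur and tibia, live cells were sorted, and libraries were made with 10x 3′ chemistry, which counts mRNA molecules by a random barcode (unique molecular identifier, UMI) near the 3′ end. The values therefore do not grow with transcript length. There were 1309 cells and 8647722 UMIs in Col1a1fspKO and 1169 cells and 8624469 UMIs in WT. The median cell had 4954 UMIs in Col1a1fspKO and 5534 UMIs in WT, and 2 cell barcodes occurred in both libraries. Col1a1 had 3 UMIs in Col1a1fspKO and 0 in WT, and the 3′ end that is counted lies outside the deleted exons, so it does not check the deletion. Cells were divided into 15 types by gates on marker genes other than the Ly6 genes, and 67 of 2478 cells passed no gate. Levels are UMIs of the gene per 1000000 UMIs of the cell type (CPM), with exact Poisson 95% intervals, and ratios are Col1a1fspKO over WT with exact binomial 95% intervals. The intervals hold counting error alone, since the spread between mice was not measured. Some Ly6g UMIs lay outside neutrophils in both libraries. Erythroid cells, which should lack Ly6G, had a Ly6g UMI in 15.3% of cells in Col1a1fspKO and 10.8% in WT. RNA free in the suspension or doublets, which were kept, could give such UMIs, and their source was not tested.

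The 6 genes divided the marrow between them (plot of levels by cell type). Ly6c2 was highest in monocytes and their progenitors, Ly6g in neutrophils, Ly6d in B cells and plasmacytoid dendritic cells, and Ly6a in plasmacytoid dendritic cells and T cells. Ly6e was present in every cell type and lowest in neutrophils and erythroid cells. Ly6c1 followed Ly6c2 in Col1a1fspKO and was close to 0 in WT.

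**Figure D1:**
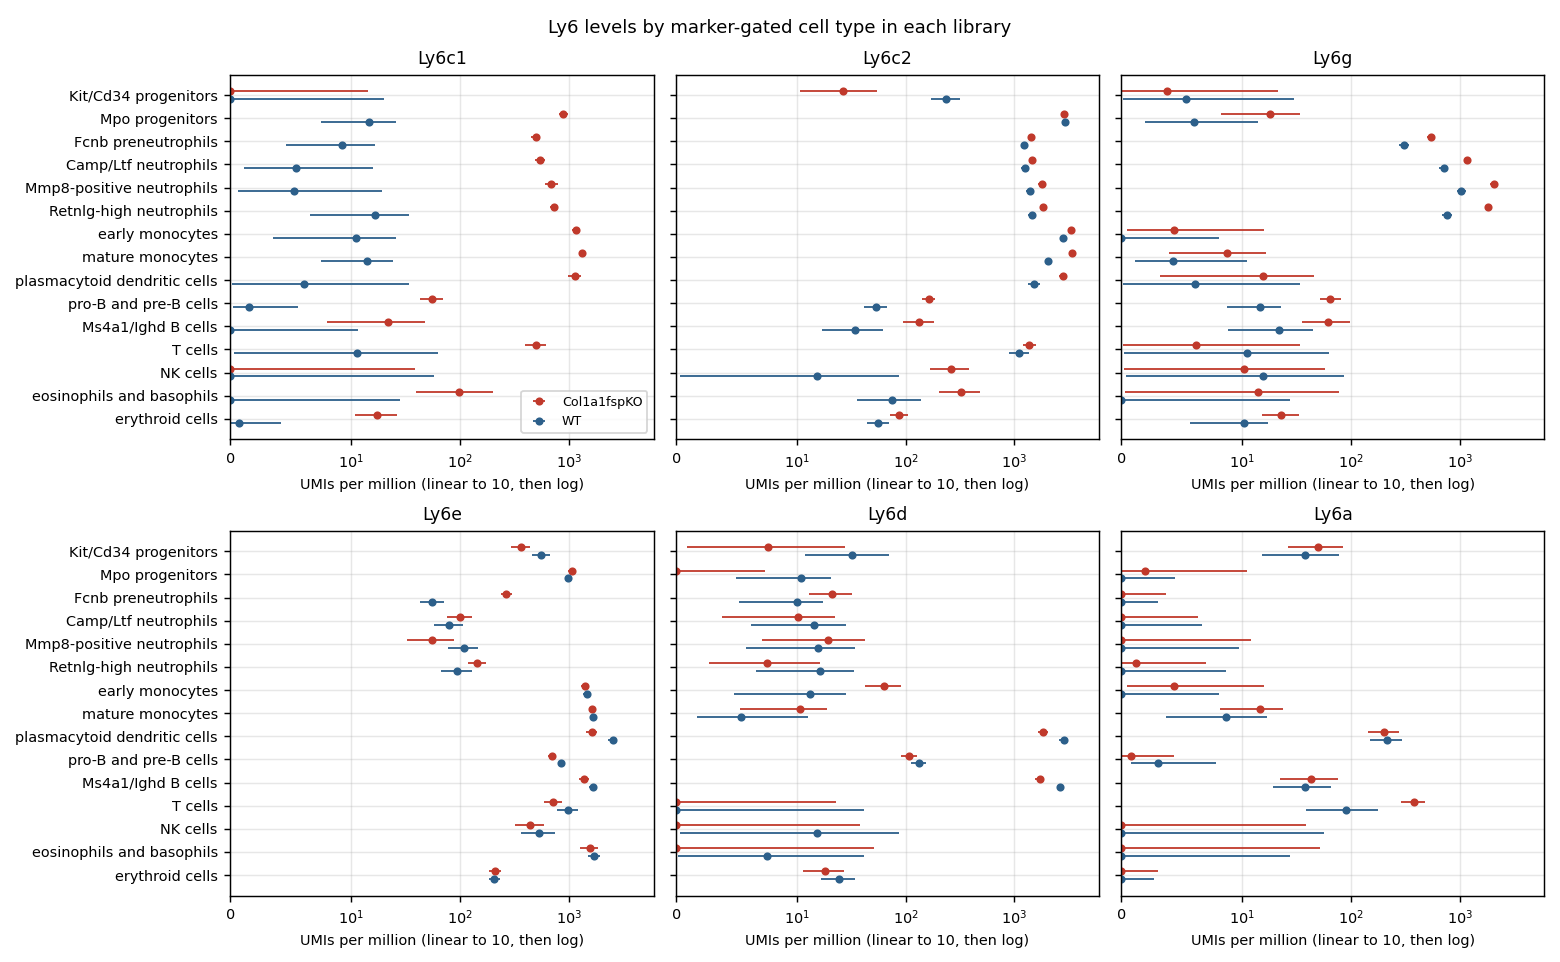
Level of each Ly6 gene (CPM, horizontal axis, linear up to 10 and logarithmic above) in the 15 marker-gated cell types of the Col1a1fspKO library (red) and the WT library (blue). Points are sums over all cells of a type and bars are exact Poisson 95% intervals. Ly6c1 separates the libraries in the myeloid types, with 1312 against 14.05 in mature monocytes, and Ly6c2, Ly6e and Ly6d keep much the same order of cell types in both.

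Ly6c2, the more abundant of the Ly6C genes, was at 3374 CPM (3263 to 3488) in mature monocytes of Col1a1fspKO and 2027 CPM (1936 to 2121) in WT. In early monocytes it was at 3327 and 2811 CPM, and in Mpo progenitors, which give rise to granulocytes and monocytes, at 2847 and 2899 CPM. Plasmacytoid dendritic cells, which secrete type I interferon, carried 2797 CPM in Col1a1fspKO against 1523 CPM in WT. The 4 neutrophil stages lay lower, between 1429 and 1820 CPM in Col1a1fspKO and between 1229 and 1437 CPM in WT, and T cells were at 1373 and 1109 CPM. B cells and erythroid cells held 34.4 to 163 CPM. In Col1a1fspKO, mature and early monocytes did not differ beyond counting error, nor did Mpo progenitors and plasmacytoid dendritic cells. In WT, mature monocytes ranked below both Mpo progenitors and early monocytes. The step from Retnlg-high neutrophils up to mature monocytes depended on the scale. It was 0.50 on the log2 scale in WT, and -0.31 when the 20 most abundant genes were left out of the totals.

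The ratio of Ly6c2 was 1.66 (1.57 to 1.76) in mature monocytes and 1.84 (1.58 to 2.14) in plasmacytoid dendritic cells. It was 0.98 (0.92 to 1.05) in Mpo progenitors and between 1.16 and 1.28 in early monocytes and the 4 neutrophil stages. Erythroid cells had a log2 ratio of 0.66, which was -0.058 with cells thinned to 2500 UMIs. Of 12 cell types with at least 50 Ly6c2 UMIs, only pro-B and pre-B cells were at least 2-fold higher, at 3.04 (2.30 to 4.04). There, 1.2% of all 4982 genes tested were at least 2-fold higher. Neutrophil marker genes moved with that ratio: all 4 genes of the neutrophil list were detected in pro-B and pre-B cells of both libraries, at a summed 25466 CPM in Col1a1fspKO against 10233 CPM in WT. Without the cells that carried at least 500 S100a8 and S100a9 UMIs per 10000, the log2 ratio of Ly6c2 there was 0.36 in place of 1.60. Kit/Cd34 progenitors went the other way, at 26.8 CPM in Col1a1fspKO against 237 CPM in WT, but 1 of 20 WT cells held 38 of the 44 UMIs. Without the 2 highest cells of each library the log2 ratio there was -0.70 in place of -3.14. In Kit/Cd34 progenitors 1.73% of 982 genes were at least 2-fold lower in Col1a1fspKO.

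Mature monocytes were also described by their own Ly6c2 level, a split that uses the value that differs and so tests nothing about it. Of 172 WT mature monocytes, 39 or 22.7% (16.6 to 29.7) had under 5 Ly6c2 UMIs per 10000, against 4 of 177 or 2.26% (0.62 to 5.68) in Col1a1fspKO. These WT cells carried H2-Aa, a chain of MHC class II, at 1477 CPM and Cd209a, a lectin of monocyte-derived dendritic cells, at 257 CPM. The other WT mature monocytes had 10.9 CPM of H2-Aa and 1.37 CPM of Cd209a. The summed list of conventional dendritic cell markers was at 1755 CPM in the low cells and 16.4 CPM in the rest of WT. In Col1a1fspKO it was at 2934.5 CPM and 97.5 CPM. H2-Aa and Cd209a are on that list and together made up most of each sum, so the list adds little to these genes. Cx3cr1, a receptor of patrolling monocytes, was at 242 CPM in the low WT cells and 146 CPM in the rest. When mature monocytes with at least 5 conventional dendritic marker UMIs per 10000 were left out, the log2 ratio of Ly6c2 was 0.68, against 0.74 with them. That setting kept 1300 of all 1309 Col1a1fspKO cells and 1159 of all 1169 WT cells, so most of the low WT cells stayed in.

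Ly6c1 showed the widest difference between the libraries, with 4397 UMIs over all Col1a1fspKO cells and 58 over all WT cells. It was at 1312 CPM (1243 to 1384) in mature monocytes of Col1a1fspKO, where WT had 14.05 CPM (7.48 to 24.02). Early monocytes held 1151 and 10.97 CPM and plasmacytoid dendritic cells 1130 and 6.09 CPM. The neutrophil stages held 492 to 730 CPM in Col1a1fspKO and 5.27 to 16.4 CPM in WT. T cells, in which Ly6C is an antigen of memory CD8 cells, were at 495 and 11.2 CPM. In Col1a1fspKO, T cells with Cd8a or Cd8b1 held 448 CPM on 23 UMIs, and those without held 516 CPM on 57 UMIs. No UMI of Ly6c1 was counted in Kit/Cd34 progenitors or NK cells of either library, which at 3 counts allows up to 9.38% of Kit/Cd34 progenitors with a UMI in Col1a1fspKO and 15% in WT. This limits cells with a UMI, not cells that express the gene. In Col1a1fspKO, neighbours in this order that did not differ beyond counting error included early monocytes and plasmacytoid dendritic cells, Retnlg-high and Mmp8-positive neutrophils, and the Camp/Ltf neutrophils, T cells and Fcnb preneutrophils.

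All 10 cell types with at least 50 Ly6c1 UMIs were at least 2-fold higher in Col1a1fspKO, with ratios from 35.6 in pro-B and pre-B cells to 185 in plasmacytoid dendritic cells. The pro-B and pre-B ratio rested on 69 and 2 UMIs, and neutrophil marker genes moved there, as given for Ly6c2. Of 173 Col1a1fspKO cells of that type, 16 had a Ly6c1 UMI, and the 2 highest held 33.3% of the UMIs. In mature monocytes the ratio was 93.4 (54.4 to 176). Among all genes with at least 50 UMIs, the share at least 2-fold higher was 0.571% in Mpo progenitors, 0.581% in Fcnb preneutrophils, 0.427% in Camp/Ltf neutrophils, 0.681% in Mmp8-positive neutrophils and 1.66% in Retnlg-high neutrophils. It was 0.646% in early and 1.09% in mature monocytes, 0.663% in plasmacytoid dendritic cells, 1.2% in pro-B and pre-B cells, 2.99% in T cells and 0.648% over all cells. The upper bounds were wide because WT held between 1 and 13 Ly6c1 UMIs in each of these types. In mature monocytes a Ly6c1 UMI was found in 95.5% (91.3 to 98.0) of cells in Col1a1fspKO, against 6.98% (3.66 to 11.9) in WT. After thinning to 2500 UMIs a cell, these shares of mature monocytes were 91.0% and 2.91%. In erythroid cells the shares without thinning were 6.12% and 0.98%.

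Ly6c1 kept a similar proportion to Ly6c2 in most cell types of Col1a1fspKO. Over all cells it made up 26.7% (26.0 to 27.4) of the summed UMIs of the Ly6C genes in Col1a1fspKO and 0.609% (0.463 to 0.787) in WT. By cell type the share in Col1a1fspKO ran from 23.7% in Mpo progenitors to 28.8% in plasmacytoid dendritic cells, across the progenitors, neutrophils, monocytes, dendritic cells, T cells and pro-B and pre-B cells with at least 100 such UMIs. Erythroid cells, with 128 such UMIs, lay outside that range, at 16.4% (10.5 to 24.0). In WT it did not exceed 2.78% in any of the same types. The level of Ly6c2 thus varied widely between cell types, while the share of Ly6c1 stayed within a few percentage points (plot of the Ly6c1 share).

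**Figure D2:**
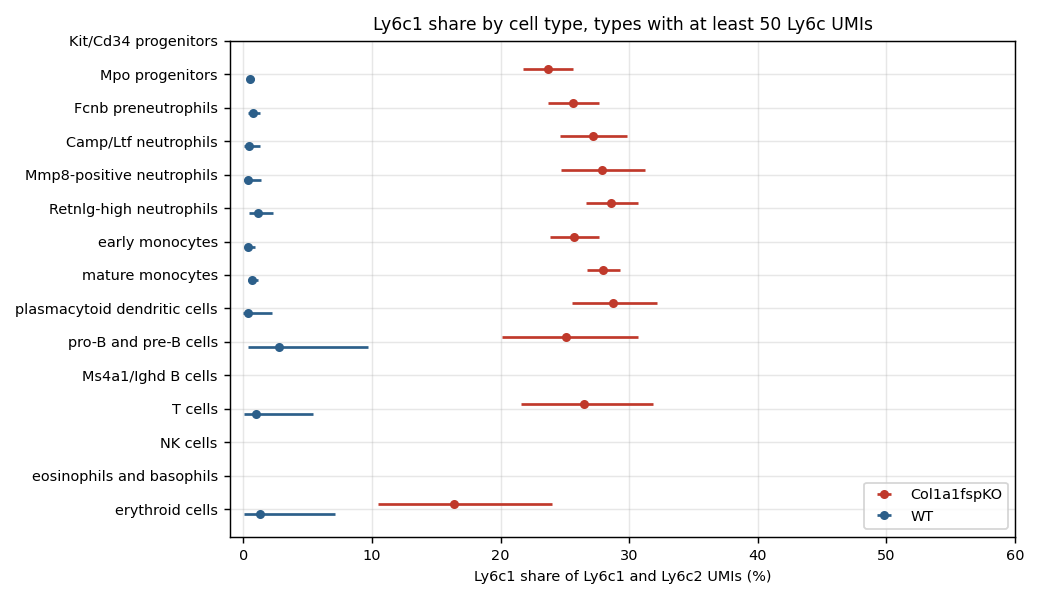
Share of Ly6c1 in the summed Ly6c1 and Ly6c2 UMIs (percent, horizontal axis) by cell type, for types with at least 50 such UMIs, in Col1a1fspKO (red) and WT (blue). Bars are exact binomial 95% intervals. Col1a1fspKO types from Mpo progenitors to T cells lie between 23.7% and 28.8%, and WT types lie at or under 2.78%.

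The same held in single cells. Of 552 Col1a1fspKO cells with at least 10 UMIs of the Ly6C genes, 546 had Ly6c1, with a median share of 27.8%, and 535 had a share between 10% and 50%. Of 301 such WT cells, 42 had Ly6c1, and the highest share was 10%. Detection of Ly6c1 rose with the count of Ly6c2. In Col1a1fspKO, 21.4% of cells with 1 or 2 Ly6c2 UMIs had Ly6c1, then 77.1% with 3 or 4, 91.5% with 5 to 9, 97.9% with 10 to 19 and 99.4% with 20 or more. In WT the shares in the last 3 ranges were 2.90%, 10.6% and 18.2%. None of the 342 Col1a1fspKO cells without Ly6c2 had a Ly6c1 UMI, which at 3 counts allows up to 0.877% of such cells with one, and cells without a Ly6c2 UMI may still express either gene. Of the 176 Col1a1fspKO cells with 20 or more Ly6c2 UMIs, 175 had Ly6c1.

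**Figure D3:**
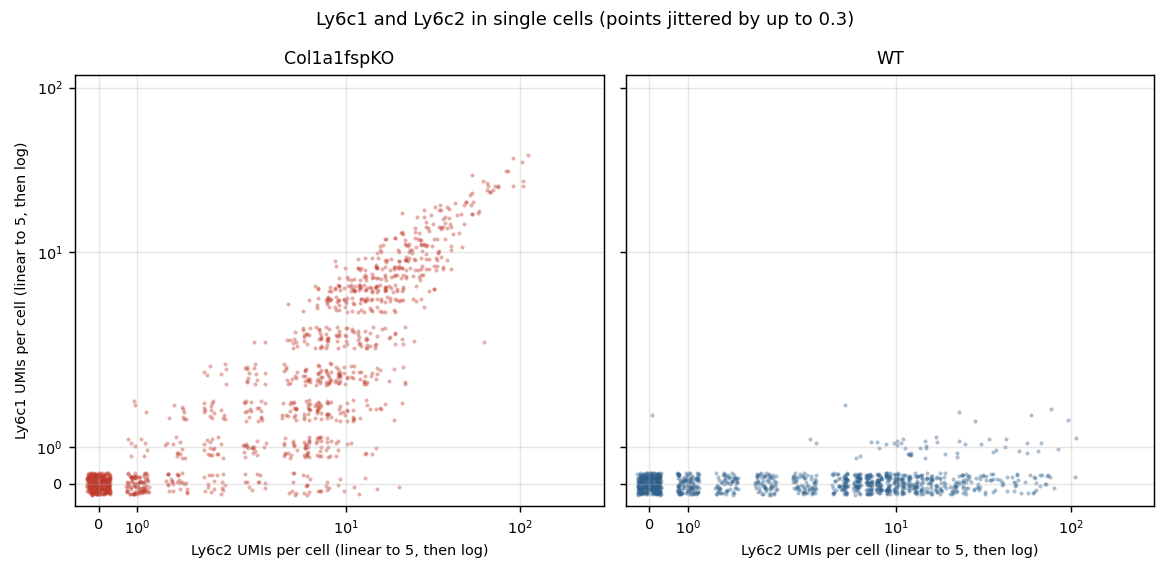
Ly6c1 UMIs (vertical axis) against Ly6c2 UMIs (horizontal axis) in each cell, both linear up to 5 and logarithmic above, with points jittered by up to 0.3, for Col1a1fspKO (left) and WT (right). Col1a1fspKO cells form 1 band, in which the median share of Ly6c1 is 27.8% among cells with at least 10 UMIs of both genes together, and most WT cells lie on the line of 0 Ly6c1 UMIs.

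The paralogs share much of the sequence that is counted. Over the last 500 bases of their longest coding transcripts in GENCODE M21, Ly6c1 and Ly6c2 were 95.5% identical, and 1 of 377 windows as long as the cDNA read occurred unchanged in both. Ly6a was 84.4% and 85.8% identical to them over that stretch and Ly6g 81.8% and 82.5%, and none of their windows occurred in another member. Nearly every window thus tells the paralogs apart in the reference sequence, but the alleles of the pooled mice were not known, and how reads were divided between the genes remains uncertain. With 1 pool per genotype, an effect of the deletion and a difference in alleles of the cluster between the pools cannot be told apart. This holds for the ratios of all 6 members, Ly6c1 among them. The sum of Ly6c1 and Ly6c2 does not depend on how reads were divided between them. Reads counted for neither gene would be missing from the sum, and such a loss was not tested. The sum was at 1905 CPM in Col1a1fspKO against 1104 CPM in WT, a ratio of 1.73 (1.68 to 1.77). In mature monocytes the ratio of the sum was 2.30 (2.18 to 2.42), in plasmacytoid dendritic cells 2.57 (2.22 to 2.97), in Mpo progenitors 1.28 (1.20 to 1.36), and in the 4 neutrophil stages between 1.55 and 1.77.

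Ly6g, the antigen by which mouse neutrophils are identified, was at least 307 CPM in each neutrophil stage and at most 65.0 CPM in every other cell type. It rose from Fcnb preneutrophils, at 546 CPM in Col1a1fspKO against 307 CPM in WT, to Camp/Ltf neutrophils, at 1179 and 712 CPM. The highest level was in Mmp8-positive neutrophils, at 2059 CPM (1902 to 2226) and 1039 CPM (939 to 1147). It was lower again in Retnlg-high neutrophils, the most mature stage, at 1810 and 765 CPM. Ranked by level, each stage exceeded the next beyond counting error in Col1a1fspKO, and in WT each did except Retnlg-high over Camp/Ltf neutrophils. Monocytes had 0 to 8.73 CPM, no more than the 10.4 and 23.0 CPM in erythroid cells.

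Ly6g was higher in Col1a1fspKO at each stage, with ratios of 1.78 (1.56 to 2.04) in Fcnb preneutrophils, 1.66 (1.46 to 1.88) in Camp/Ltf neutrophils, 1.98 (1.75 to 2.25) in Mmp8-positive neutrophils and 2.36 (2.09 to 2.67) in Retnlg-high neutrophils. At least 2-fold higher levels were found in 2 of the 5 cell types with at least 50 Ly6g UMIs, Retnlg-high neutrophils, where 1.66% of 1631 genes were at least 2-fold higher, and pro-B and pre-B cells. In the latter the level was 65.0 CPM in Col1a1fspKO against 14.6 CPM in WT, and the neutrophil markers moved with it as for Ly6c2. Without the cells rich in S100a8 and S100a9 the log2 ratio of Ly6g there was 1.06 in place of 2.15. In Retnlg-high neutrophils a Ly6g UMI was found in 98.2% (95.4 to 99.5) of cells in Col1a1fspKO, against 87.6% (80.1 to 93.1) in WT, and 95.5% and 81.4% did when thinned to 2500 UMIs. The median depth of these cells was 3231 UMIs in Col1a1fspKO and 3536 in WT.

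**Figure D4:**
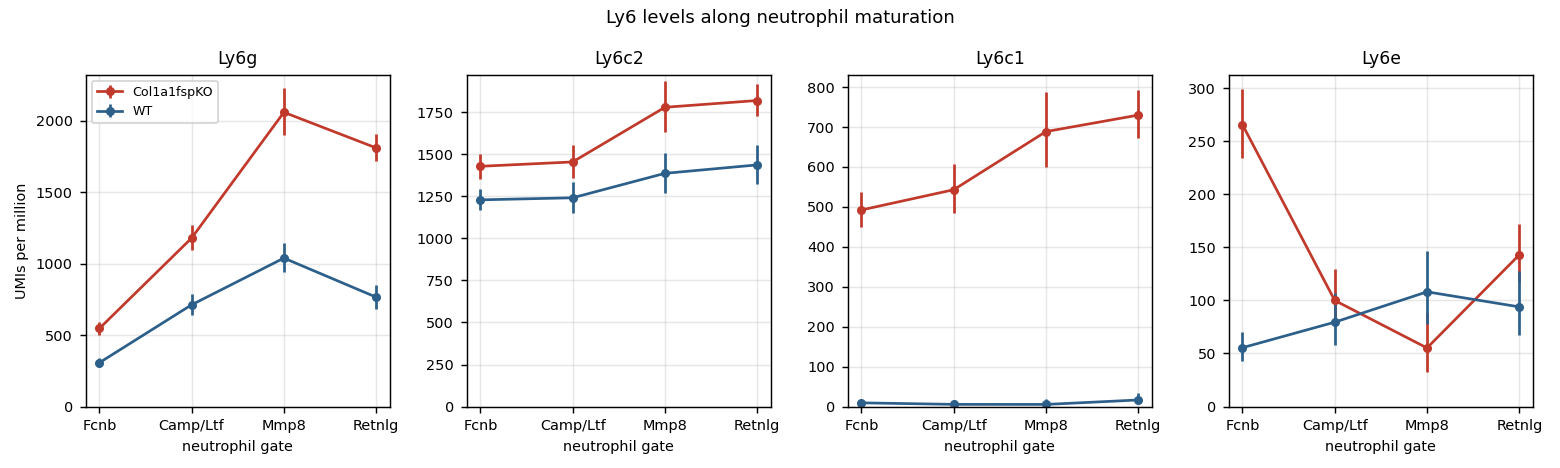
Level of Ly6g, Ly6c2, Ly6c1 and Ly6e (CPM, vertical axis from 0) along the neutrophil gates Fcnb, Camp/Ltf, Mmp8 and Retnlg, in Col1a1fspKO (red) and WT (blue), with exact Poisson 95% intervals. Ly6g peaks in Mmp8-positive neutrophils of both libraries, at 2059 and 1039, and Ly6e of Col1a1fspKO is highest in Fcnb preneutrophils, at 266.

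Ly6e, which restricts the entry of several viruses into cells, was the most widely expressed member. In WT it was at 2510 CPM (2274 to 2765) in plasmacytoid dendritic cells, and at 1452 to 1698 CPM in eosinophils and basophils, mature and early monocytes and Ms4a1/Ighd B cells. Neutrophils held 55.5 to 108 CPM in WT, the lowest of all cell types. In Col1a1fspKO mature monocytes and plasmacytoid dendritic cells were both near 1615 CPM, and from these down to Ms4a1/Ighd B cells, the fifth type, no step between neighbours exceeded counting error.

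Between the libraries Ly6e moved in both directions, by little in most cell types. The ratio was 0.97 (0.91 to 1.04) in mature monocytes and 0.96 (0.86 to 1.07) in early monocytes. It was 0.64 (0.55 to 0.75) in plasmacytoid dendritic cells, 0.82 (0.75 to 0.89) in pro-B and pre-B cells, 0.83 (0.73 to 0.95) in Ms4a1/Ighd B cells and 0.74 (0.55 to 0.98) in T cells. Kit/Cd34 progenitors had a log2 ratio of -0.62, which was 0.073 when clusters replaced the gates. Of 15 cell types, Fcnb preneutrophils alone were at least 2-fold higher, at 266 CPM (235 to 299) in Col1a1fspKO against 55.5 CPM (42.9 to 70.5) in WT, and the ratio was 4.79 (3.65 to 6.37). In that cell type 0.581% of 3099 genes were at least 2-fold higher. The UMIs were concentrated: 20 of 116 Col1a1fspKO cells had 5 or more Ly6e UMIs and held 69.9% of them, and 3 of 142 WT cells did. Of these 20 cells, 10 had at least 20 UMIs per 10000 of the primary granule proteases (Mpo, Elane, Prtn3 and Ctsg), which mark the preceding stage. Of the 3 WT cells, 0 did. Among cells with 1 to 4 Ly6e UMIs, 3 in Col1a1fspKO and 7 in WT did, as did 3 WT cells with none. Without cells past that limit or with at least 5 monocyte marker UMIs per 10000, the levels were 157 CPM over 100 cells in Col1a1fspKO and 32.7 CPM over 129 cells in WT, and the log2 ratio was 2.27 against 2.26 with all cells. With all cells thinned to 2500 UMIs it was 1.61. Cells of Col1a1fspKO with 5 or more Ly6e UMIs had a median of 13948 UMIs in all, and cells with none had 5012. In WT these medians were 10062, over 3 cells, and 7334.5. Deeper cells reach a raw count more easily, so this split by Ly6e itself tests nothing about depth.

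Ly6d was shared by B cells and plasmacytoid dendritic cells. Plasmacytoid dendritic cells held 1823 CPM in Col1a1fspKO against 2833 CPM in WT, and Ms4a1/Ighd B cells, which express surface immunoglobulin, held 1709 and 2636 CPM, a difference within counting error in each library. Pro-B and pre-B cells had far less, 108 and 132 CPM. The ratio was 0.64 (0.56 to 0.74) in plasmacytoid dendritic cells, 0.65 (0.58 to 0.73) in Ms4a1/Ighd B cells and 0.82 (0.65 to 1.03) in pro-B and pre-B cells. In plasmacytoid dendritic cells 2 lists of B cell markers moved with Ly6d. The pro-B and pre-B list was at 234 CPM in Col1a1fspKO against 804 CPM in WT (7 of 9 genes detected in each). The immature and mature B list was at 3479 against 4880 CPM (6 of 7 in each). The latter list includes MHC class II genes such as H2-Aa and is not particular to B cells: mature monocytes held 870 and 1574 CPM of it. The list of plasmacytoid dendritic cell genes was at 11994 and 11924 CPM. Whether cells of the B lineage had a part in the Ly6d ratio was not tested. None of the 4 cell types with at least 50 Ly6d UMIs changed 2-fold. In Ms4a1/Ighd B cells 2.72% of 1507 genes were at least 2-fold lower, and in plasmacytoid dendritic cells 1.22% of 905. The list of immature and mature B cell genes was at 15522 CPM in Ms4a1/Ighd B cells of Col1a1fspKO and 13554 CPM in WT, with all 7 genes detected in both. Early monocytes had 63.6 CPM in Col1a1fspKO against 13.2 CPM in WT, on 29 and 6 UMIs, and 1 Col1a1fspKO cell held 22 of the 29.

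Ly6a was the rarest member, with 151 UMIs over all cells in Col1a1fspKO and 75 in WT. Plasmacytoid dendritic cells held 203 CPM (144 to 278) in Col1a1fspKO, and the 213 CPM (149 to 297) of WT gave a ratio of 0.95 (0.59 to 1.55). Kit/Cd34 progenitors, the gate in which stem cells would fall, held 49.8 CPM on 13 UMIs and 37.7 CPM on 7 UMIs, and 9 of 32 and 6 of 20 cells had a Ly6a UMI. Erythroid cells and the first 3 neutrophil stages had none in either library. T cells were at 377 CPM (288 to 484) in Col1a1fspKO against 89.6 CPM (38.7 to 177) in WT, and the ratio was 4.21 (2.01 to 10.2), where 2.99% of 568 genes were at least 2-fold higher. Of the 61 UMIs in Col1a1fspKO T cells, 44 came from 2 cells, and the level without them was 119 CPM. All 8 UMIs of WT T cells came from 2 of 21 cells. The log2 ratio of 2.07 was 0.43 with stricter gates and 4.39 with thinned cells. Ly6a in T cells without Cd8a and Cd8b1 was at 535 CPM in 26 Col1a1fspKO cells and 131 CPM in 15 WT cells, and in T cells with either it had 2 UMIs and 0.

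**Figure D5:**
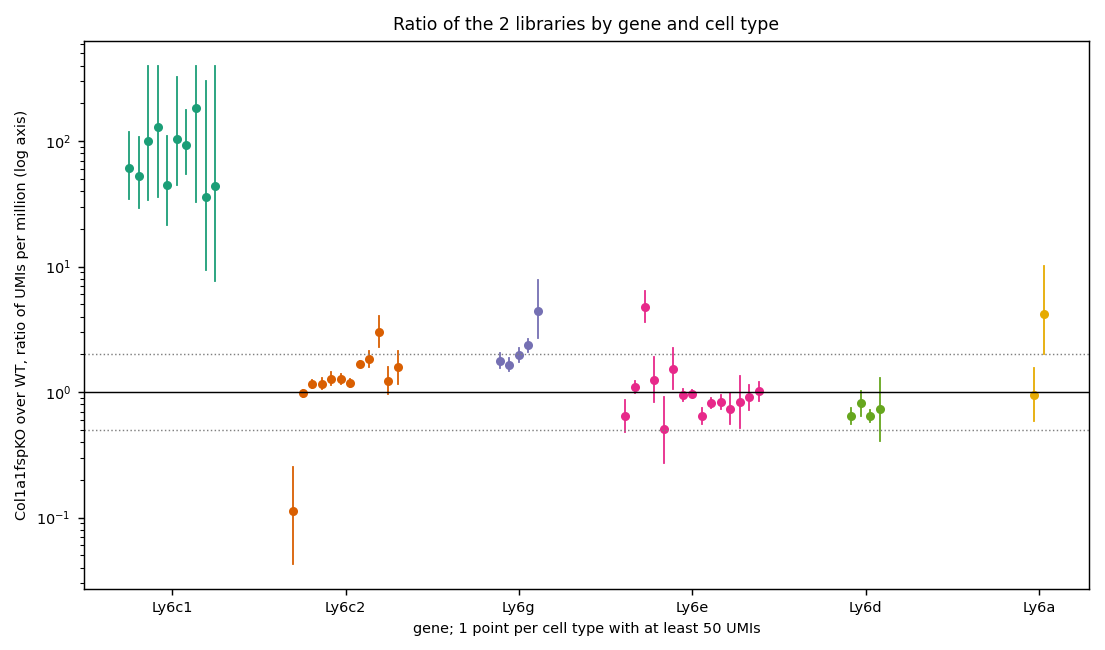
Ratio of Col1a1fspKO over WT (logarithmic vertical axis) for each Ly6 gene, with 1 point for each cell type with at least 50 UMIs, in the order of the plot of levels, and exact binomial 95% intervals cut at 400. The solid line is 1 and the dotted lines are 2-fold up and down. All 10 Ly6c1 points lie above 30, Ly6g points lie above 1.6, and Ly6d points lie below 1.

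The rest of the family and the genes around the cluster were counted from fixed lists, over all cells. Of 41 further Ly6/uPAR family genes, 10 were in the tables and 7 had at least 50 UMIs. Of these 7, 1 had an interval above 1 and 3 below it, where 7.12% and 12.4% of all genes did, and 2 were at least 2-fold lower, where 0.535% of 9725 genes were. Ly6i, a gene of the same cluster, was higher, at 5.55 CPM in Col1a1fspKO against 2.90 CPM in WT, a ratio of 1.91 (1.16 to 3.24). However, 1 Retnlg-high neutrophil held 14 of the 48 Col1a1fspKO UMIs, and without it the ratio was 1.36 (0.79 to 2.37). In mature monocytes, where 12 and 11 cells had a Ly6i UMI, the ratio was 1.22 (0.62 to 2.42). Ly6k, which is expressed in germ cells, was lower, at 2.89 CPM against 8 CPM, a ratio of 0.36 (0.22 to 0.58), which was 0.44 (0.27 to 0.72) without 1 WT cell that held 13 UMIs. Cd59a, an inhibitor of the complement membrane attack complex, had a ratio of 0.41 (0.25 to 0.65), and Lynx1, a modulator of nicotinic receptors, had 0.52 (0.33 to 0.80). Cd177, a neutrophil member, was at 169 and 161 CPM, a ratio of 1.05 (0.97 to 1.13). Plaur, the urokinase receptor, had a ratio of 1.03 (0.92 to 1.14).

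Of 22 listed neighbours of the Ly6 cluster found in the tables, 16 had at least 50 UMIs, and 0 were at least 2-fold different in either direction. Of all 9725 genes, 0.648% were at least 2-fold higher and 0.535% lower, so a count of 0 among 16 says little. An interval above 1 was found for 3 of the 16 and below 1 for 1, where 7.12% and 12.4% of all genes had one. At a minimum of 20 UMIs, 1 of 21 neighbours was at least 2-fold higher. Plec was the highest, with a ratio of 1.28 (1.03 to 1.59), followed by Tsta3 at 1.23 and Zfp707 at 1.21, and Zfp623 was the lowest, with 0.65 (0.36 to 1.17), after Slc45a4 at 0.77 and Them6 at 0.78. The median log2 ratio of the 16 was -0.0013, against -0.039 over all 9725 genes.

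Interferon-stimulated genes were counted beside Ly6e, Ly6a and Ly6c2, which respond to interferon. Over all cells, which the libraries divided differently between cell types, 21 of 33 with at least 50 UMIs had an interval above 1 and 1 below it, where 7.12% and 12.4% of all 9725 genes did, with a median log2 ratio of 0.46 against -0.039 over all genes. At least 2-fold higher were 3, Cxcl10 at 6.08 (3.09 to 13.3), Ifit1 at 2.74 (1.76 to 4.39) and Gbp2 at 2.45 (1.53 to 4.04). The lowest were Stat2 at 0.67 (0.46 to 0.97), Ifit2 at 0.89 and Mx1 at 0.96. Ly6e over all cells went the other way, with a ratio of 0.94 (0.90 to 0.97), and Ly6a was at 2.01 (1.51 to 2.69). Within cell types fewer could be counted. In mature monocytes 4 of 20 had an interval above 1 and 1 below it, where 7.06% and 5.75% of all 3667 genes did, and their median log2 ratio was 0.29 beside a Ly6e ratio of 0.97. In pro-B and pre-B cells, where Ly6e was lower, 6 such genes had a median of 0.50. The median was 0.72 over 5 genes in Retnlg-high neutrophils and 0.63 over 2 in Fcnb preneutrophils, where Ly6e was higher, 0.32 over 3 in early monocytes, 0.19 over 6 in erythroid cells and 0.21 over 2 in Mpo progenitors. It was -0.10 over 3 genes in plasmacytoid dendritic cells, where Ly6e was lower. No cell type other than these had more than 1 such gene.

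The genes most alike to each member in their pattern over the 15 cell types were sought among 5932 genes by the correlation of log2(CPM + 10), averaged over both libraries except for Ly6c1. These correlations describe cell types that share libraries and depth. For Ly6c1 the closest was Ly6c2, with r = 0.95 in Col1a1fspKO, followed by Atg3 and Nfam1. For Ly6c2, whose candidates did not include Ly6c1 because of its low WT counts, they were Vsir, Rhog and Nrp1, at 0.80. Ly6g went with Trp53inp2, Ppp1r42 and Lrg1 (0.97 to 0.98), Ly6d with Spib, Sdc4 and Snn (0.87 to 0.93), Ly6e with Erp44, Tmem192 and Fau (0.91 to 0.92) and Ly6a with Stx6, Trim8 and Nsmaf (0.78 to 0.81). Between members, Ly6e and Ly6g ran most opposite, with r = -0.79 in Col1a1fspKO and -0.87 in WT.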

How the data were processed

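The authors deposited raw UMI counts in 1 table per library, from Cell Ranger (version not given in the sources used here) on mm10, per the labels, which also name Seurat 3.5.3. The methods' limits of 200 to 7000 genes and at most 10% mitochondrial UMIs removed no cell. A gene not listed in 1 table counted as 0. Cells were gated in a fixed order by marker UMIs per 10000, with no Ly6 gene among the markers, and doublets were kept. UMIs were summed per gate and library and scaled to CPM in Python 3.11.15 (scipy 1.17.1). Ratios are given where both libraries together had at least 50 UMIs, and smaller counts only as values. Exceptions are the ratios of Ly6i in mature monocytes and Cd59a in plasmacytoid dendritic cells, which rest on fewer. For 0 UMIs the limit is 3 counts. The interval code was tested on simulated counts. Clusters came from Seurat 5.3.0 in R 4.3.3 (27 principal components, resolution 0.8, Ly6 genes left out), and doublets from Scrublet in scanpy 1.11.5.

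All 6 members are described in every gate. Of each list, genes with at least 50 UMIs were counted and those with the 3 highest and 3 lowest ratios were named, together with the 3 genes most alike to each member, S100a4 and Col1a1. The members and lists were chosen with earlier results of these data known. The alternatives tried are in the closing section. With 1 library per genotype no test was possible.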

Additional observations from a re-analysis of the deposited data

Results flagged for a closer look

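Ly6e and Ly6c2 differed between the libraries in opposite directions in different cell types, each beyond its own counting interval, and the difference between the cell types was not tested. Ly6e had a ratio of Col1a1fspKO over WT of 4.79 in Fcnb preneutrophils and 0.511 in Mmp8-positive neutrophils, the latter on 17 and 41 UMIs. Without the 2 highest cells of each library, the log2 ratio of Ly6e was 2.42 in Fcnb preneutrophils and -0.57 in Mmp8-positive neutrophils. Ly6c2 had a ratio of 3.04 in pro-B and pre-B cells and 0.113 in Kit/Cd34 progenitors. The first went with cells rich in neutrophil genes and the second with 1 WT cell, as given above, and what part these had in the ratios beyond the values without them was not tested.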

How the results depend on the processing

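Of 641 alternative values, 579 stayed close to the value reported (within its counting interval, or within 1.5 times for a count), 59 moved further and 3 changed sign where that interval had excluded no change. These 3 were Ly6e in Kit/Cd34 progenitors, with a log2 ratio of -0.62 and 0.073 with clusters, Ly6c2 in erythroid cells, with 0.66 and -0.058 thinned, and the step of Ly6c2 in WT from Retnlg-high neutrophils to mature monocytes, with 0.50 and -0.31 without the 20 most abundant genes. Every Ly6c1, Ly6g and Ly6d ratio kept its direction (105 of 105, 55 of 55 and 44 of 44 values), and Ly6c2, Ly6e and Ly6a ratios did in 129 of 132, 156 of 164 and 20 of 21. Values are log2 unless given in percent, and the cause of a shift was not tested. For the ratio of libraries, Ly6a in T cells was 4.39 with cells thinned to 2500 UMIs and 0.43 with stricter gates. With thinning, Ly6e was 1.61 in Fcnb preneutrophils, 0.15 in mature monocytes and -0.51 in pro-B and pre-B cells (-0.43 as a mean over cells), Ly6c2 was -0.25 in Mpo progenitors and 0.82 in mature monocytes, and Ly6g was 1.06 in Fcnb preneutrophils. Clusters gave 0.088 for Ly6c2 in Fcnb preneutrophils, 0.88 for Ly6c2 in mature monocytes (0.84 with stricter gates) and 0.54 for Ly6g in Camp/Ltf neutrophils. No cluster matched Mpo progenitors, Mmp8-positive neutrophils or NK cells, so clusters gave no value there.

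Ly6g in Mmp8-positive neutrophils over Fcnb preneutrophils was 2.20 without the 20 most abundant genes, 1.47 as a mean over cells, 1.41 thinned, 2.24 with stricter gates and 1.57 without progenitor and monocyte cells in Col1a1fspKO, and 1.48, 1.51, 2.11 and 1.54 for the last 4 in WT. Ly6c2 in mature monocytes over Retnlg-high neutrophils was 0.12 without those 20 genes and 1.33 without mitochondrial and ribosomal protein genes in Col1a1fspKO, and in WT it was 0.96 under the latter setting, where clusters gave 0.28. Ly6e over the same types was 2.73 and 3.94 under these settings in Col1a1fspKO, 3.95 as a mean over cells, 3.87 thinned, 4.59 with clusters and 3.90 without the 2 top cells, and in WT it was 3.34 without the 20 genes, 5.53 with clusters and 4.99 without the 2 top cells. Ly6d in Ms4a1/Ighd B cells over pro-B and pre-B cells was 3.67 with stricter gates in Col1a1fspKO, and in WT it was 4.02 as a mean over cells, 3.92 thinned, 3.38 with clusters and 4.596 without cells rich in neutrophil genes. Thinned, 91.0% and 2.91% of mature monocytes had Ly6c1. The count of family genes with an interval above 1 was 0 without the cell with most UMIs of each gene, in place of 1, which was Ly6i.

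The settings without the cell with most UMIs of a family gene, without the 2 top cells, without cells rich in neutrophil genes, without progenitor and monocyte cells, and without dendritic-gene cells were chosen after seeing the data. No paired analysis was possible because each genotype was 1 library. Depth limits Ly6c1 in WT and Ly6a everywhere, where most cell types held few UMIs.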

Other observations

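Lynx1 was at 72.2 CPM in Ms4a1/Ighd B cells of Col1a1fspKO and 153 CPM in WT, on 20 and 49 UMIs, a ratio of 0.47 (0.27 to 0.81). Ly6k in the same cells was at 25.3 and 62.6 CPM, on 7 and 20 UMIs. Cd59a was counted in erythroid cells, at 8.23 CPM in Col1a1fspKO against 35.7 CPM in WT, with 7 and 35 cells holding a UMI. Its ratio there was 0.23 (0.10 to 0.46). In plasmacytoid dendritic cells it was at 52.1 CPM on 10 UMIs and 24.4 CPM on 4 UMIs, a ratio of 2.14 (0.62 to 9.33).

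Cells that passed no gate had Ly6c1 at 188 CPM in Col1a1fspKO and 0 in WT, and Ly6c2 at 542 and 252 CPM.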
